A study of Mus musculus with 18 samples.

Results

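The genes described here are 10 cytoskeletal and matricellular targets of the transcription factors SRF and YAP, taken by symbol from the deposited table of protein-coding genes. All 10 were found among the 21859 genes of that table, and 6 of them also had a row, under the same symbol, in the table of 32253 promoter upstream transcripts (PROMPTs, short antisense RNAs made just upstream of a promoter). They are the cytoplasmic actins Actb and Actg1, the smooth muscle actin Acta2, the actin-binding genes Tagln, Cnn1 and Vcl, the myosin regulatory light chain Myl9, the transcription factor Srf, and the secreted CCN proteins Ccn1 and Ccn2.

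The data were nascent RNA from E14 murine embryonic stem (ES) cells, measured by TT-seq, in which RNA made during 5 min of labelling with 4-thiouridine is purified and sequenced. The study asked how the histone chaperone FACT acts on transcription in ES cells, and for this its subunit SPT16 was joined to an auxin-inducible degron (AID), a tag that leads to degradation of the protein when the auxin 3-IAA is added. There were 18 libraries, which fall into 6 conditions of 3 libraries. Untagged cells, SPT16_AID_V5 clone 1 and SPT16_AID_V5 clone 2 each received 3-IAA or the vehicle EtOH (0.1%) for 24 h. All cells carried the auxin receptor osTIR1 and grew without feeders in serum and LIF with inhibitors of GSK3 and MEK. Each tagged line is 1 clone with a mini-AID and 3xV5 tag on both copies of the gene for SPT16, and the Untagged cells have osTIR1 without the tag. The labels give 500 nM for 3-IAA while the methods give 500 µM.

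Each gene and PROMPT has 1 level here, the mean normalized read count (counts divided by the size factor of their library and averaged over libraries). This mean pools the SPT16-depleted libraries with their controls, so the levels describe ES cells across all 6 conditions and carry no spread between replicates, no test and nothing on the effect of depletion. The means of the least transcribed genes fell on 18 steps, each the worth of 1 read (a read pair) in 1 library, and those of PROMPTs also fell on 18. The worth of 1 read ran from 0.0216 to 0.115 in the gene table, a 5.34-fold range of depth between libraries, and from 0.0266 to 0.129 in the PROMPT table. These steps bound how many reads lie behind a low mean, and such bounds cover counting only. A single pooled mean of the gene for SPT16 cannot check the labels, and the degron acts on the protein.

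SRF binds a short sequence, the CArG box, and drives actin and actin-binding genes together with the coactivators MRTF-A, MRTF-B and, in muscle, myocardin. The MRTFs are held back by unpolymerized actin, so that polymerization of actin frees them to enter the nucleus. YAP and its relative TAZ are coactivators that enter the nucleus when the Hippo kinases are inactive, where they act through the DNA-binding TEAD proteins, and Ccn1 and Ccn2 are among their best known targets.

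Promoter sequence was at hand for 7 of the 10 genes, from RefSeq on GRCm38.p6, in windows of 250 bases before to 50 bases after the annotated start. The CArG box was searched as CC, 6 bases of A or T, and GG, a pattern that reads the same on both strands. It was present in 4 of these 7 windows, those of Srf, Vcl, Actg1 and Myl9, beside 1.63% of 32851 promoter windows overall. The genes were listed as targets of SRF or YAP, and SRF binds this box. A high share is therefore no separate evidence of control by SRF. The upstream sequences of those 4 genes are shown because they hold the box, which is in capitals, and each is written 5′ to 3′ on the strand of its gene and stops short of the Gencode gene.
Srf, chr17:46556176-46556412, minus strand: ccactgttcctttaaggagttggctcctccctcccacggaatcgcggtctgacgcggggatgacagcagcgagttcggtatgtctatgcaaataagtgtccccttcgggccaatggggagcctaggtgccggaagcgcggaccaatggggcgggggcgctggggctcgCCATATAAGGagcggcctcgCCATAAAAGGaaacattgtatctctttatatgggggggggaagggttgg
Vcl, chr14:20929148-20929397, plus strand: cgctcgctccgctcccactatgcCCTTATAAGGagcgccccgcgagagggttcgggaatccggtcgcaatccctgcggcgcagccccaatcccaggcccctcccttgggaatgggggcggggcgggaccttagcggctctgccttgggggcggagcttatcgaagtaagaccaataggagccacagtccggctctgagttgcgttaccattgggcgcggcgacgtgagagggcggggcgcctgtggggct
Actg1, chr11:120348543-120348745, minus strand: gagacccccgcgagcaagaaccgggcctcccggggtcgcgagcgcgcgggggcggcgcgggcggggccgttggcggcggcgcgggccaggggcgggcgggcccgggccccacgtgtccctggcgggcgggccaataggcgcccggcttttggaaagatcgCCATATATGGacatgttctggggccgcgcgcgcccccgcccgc
Myl9, chr2:156775214-156775419, plus strand: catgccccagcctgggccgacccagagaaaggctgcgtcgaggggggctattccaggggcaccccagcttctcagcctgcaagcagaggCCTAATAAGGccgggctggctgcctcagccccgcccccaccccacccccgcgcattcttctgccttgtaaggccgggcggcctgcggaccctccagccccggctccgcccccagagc

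Srf had a pair of boxes, CCATATAAGG at 82 to 73 bases and CCATAAAAGG at 62 to 53 bases upstream of the RefSeq start. The single boxes were CCATATATGG at 90 to 81 bases in Actg1, CCTAATAAGG at 161 to 152 bases in Myl9 and CCTTATAAGG at 227 to 218 bases in Vcl. The 4 genes with a box include Myl9, whose nascent RNA was low, and Srf, Vcl and Actg1, whose nascent RNA was above the median of all genes. With 1 mismatch allowed, 5 of the 7 windows had a match, beside 21.1% of all windows. The window added by this was that of Acta2, with 2 such matches. GGAATG, a core that TEAD proteins bind, was found on either strand in 3 of the 7 windows, those of Acta2, Vcl and Ccn1, beside 14.7% of all windows. TATAAA was found in 2 of 7, those of Srf and Ccn1, beside 13.6%, and GGGCGG in 5 of 7 beside 35.7%. These motifs can overlap each other, and a match is a description of letters and not of a bound site.

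The 10 genes fell into a set of 6 above the median of all genes with reads and a set of 4 with far fewer reads. A wide gap lay between the sets. Actb, Vcl, Actg1, Ccn2, Ccn1 and Srf had levels of 898 or more, above the median of 421 mean normalized counts over the 20157 genes with reads. Tagln, Myl9, Cnn1 and Acta2 had levels of 20.5 or less, all below that median. By the definition of a median, 10079 of the 20157 genes are at or above it. The count of 6 in 10 is thus near the share of all genes. The lowest of the first set, Srf, was 30.0 times the highest of the second, Tagln, per kb of summed exons. All 4 genes of the lower set are known best from smooth muscle.

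**Figure D1:**
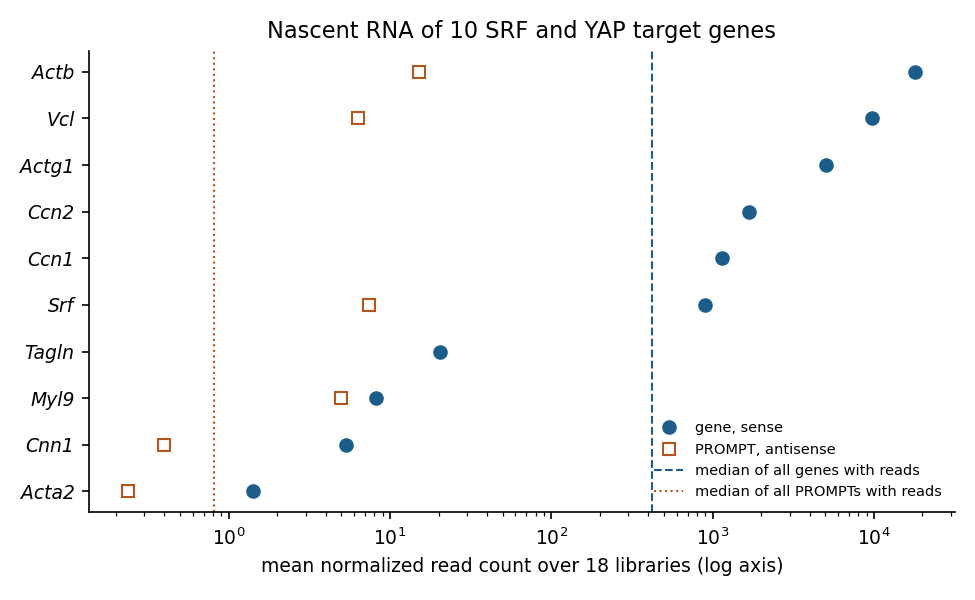
Mean normalized read count over 18 libraries (log axis) of each gene (filled circles) and of its PROMPT where the table has one (open squares), with the median of all genes (dashed) and all PROMPTs (dotted) with reads. A gap separates Srf at 898 from Tagln at 20.5, and the PROMPTs of Actb, Srf, Vcl and Myl9 lie above the PROMPT median.

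Actb, which encodes β-actin, had a level of 18074 mean normalized counts, higher than 97.3% of genes with reads and 540th from the top. The gene lies on chromosome 5 from 142903115 to 142906754 (mm10), spans 3640 bases and has 2679 bases of exon in 5 blocks. Actg1, which encodes γ-actin, had a level of 5064, higher than 83.2% of genes. It lies on chromosome 11 from 120345690 to 120348542, and 93.2% of its 2853 bases are exon. Both cytoplasmic actins are short genes, so their levels per length stood higher among all genes than the levels themselves.

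Vcl, which encodes vinculin, a protein that links actin to sites of adhesion, had a level of 9790, higher than 92.1% of genes with reads. It is by far the longest of the 10, with a span of 104279 bases on chromosome 14 from 20929398 to 21033676, and 7.85% of that span is exon. Its 3′ end overlaps the opposite-strand gene Ap3m1 by 2235 bases, which the counting by strand keeps apart. Srf, on chromosome 17 from 46548329 to 46556175, had a level of 898, higher than 58.2% of genes. Of the 6 genes above the median it had the lowest level.

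Ccn2 and Ccn1 encode matricellular proteins that are secreted and bind integrins. Ccn2, on chromosome 10 from 24595442 to 24598683, had a level of 1688 mean normalized counts, higher than 67.0% of genes with reads. Ccn1, on chromosome 3 from 145646976 to 145649981, had a level of 1138, higher than 61.3% of genes. Their spans of 3242 and 3006 bases are alike. Ccn2 was 1.05 times Ccn1 per kb of summed exons and 1.38 times per kb of span.

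The muscle genes were in the lower part of the table. Tagln, which encodes the actin-binding protein transgelin (SM22), had a level of 20.5, higher than 27.6% of genes with reads and resting on 179 to 951 reads over 18 libraries. Myl9, the smooth muscle regulatory light chain of myosin, had a level of 8.24, higher than 22.4% of genes, from 72 to 381 reads. Cnn1, which encodes calponin 1, an inhibitor of actomyosin in smooth muscle, had a level of 5.34, higher than 20.2% of genes, from 47 to 247 reads. Acta2, the smooth muscle α-actin, had a level of 1.41, higher than 13.8% of genes, from 13 to 65 reads in all. All 4 genes thus had reads, spread over libraries in a way that the mean does not show.

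These 4 genes lie in mm10 on chromosome 9 from 45929619 to 45936058 (Tagln), chromosome 2 from 156775420 to 156781658 (Myl9), chromosome 9 from 22099216 to 22109630 (Cnn1) and chromosome 19 from 34241090 to 34255590 (Acta2). In the annotation used here no target gene overlaps another protein-coding gene on its own strand. Tagln overlaps the opposite-strand gene Pcsk7 by 108 bases, and the antisense transcript Gm48529 by 3627. On the opposite strand, the lincRNA Gm26904 covers all 7847 bases of Srf, and Gm15270 covers 1667 bases of Ccn2.

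**Figure D2:**
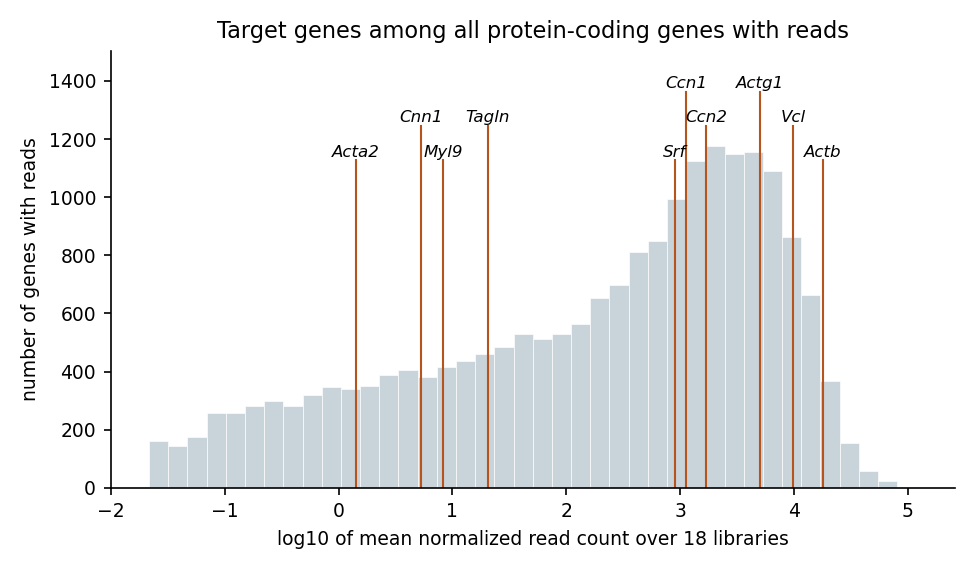
Number of protein-coding genes with reads by log10 of the mean normalized read count over 18 libraries (grey bars), with the level of each target gene as a vertical line whose height has no meaning. Acta2, Cnn1, Myl9 and Tagln lie in the long lower tail and the other 6 in or above the main peak.

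Levels of different genes can be compared only per length, and what counts as length matters for nascent RNA, which holds introns. Of 382 genes of the table that lie wholly inside another protein-coding gene of the same strand, 380 were listed at 0, beside 7.79% of all genes. That is what follows when reads are counted over whole genes, from start to end, and reads that fall in more than 1 gene are dropped. Gene span is the length that goes with such counting, and per kb of summed exons genes with much intron stand too high. Summed exons were the main length set for these levels, so levels are given per kb of both.

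Per kb of summed exons, Actb led with 6746 mean normalized counts, followed by Actg1 with 1905 and Vcl with 1195. Ccn2 (590), Ccn1 (564) and Srf (311) came next, above the median of 120 over all genes with reads. Tagln (10.3), Myl9 (7.09), Cnn1 (1.95) and Acta2 (0.643) again came last. Whether neighbours in this order differ could not be tested, as the spread over libraries is not known here, and Ccn2 and Ccn1 are nearly level on this scale.

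Per kb of gene span, the order changed by the move of a single gene. Vcl had 93.9 mean normalized counts per kb of span and went from the third to the sixth place, below Srf with 114. Actb had 4965, higher than 99.9% of genes with reads, and Actg1 had 1775, higher than 99.5%. Ccn2 with 521 and Ccn1 with 379 per kb of span were higher than 97.3% and 95.5% of genes, far above their ranks by level. Srf was higher than 74.5% and Vcl than 70.2% of genes on this scale. With summed exons as the length, the shares were 99.5% (Actb), 92.9% (Actg1), 73.4% (Ccn2), 72.6% (Ccn1), 62.2% (Srf) and 86.4% (Vcl). The 4 muscle genes had 3.19 (Tagln), 1.32 (Myl9), 0.513 (Cnn1) and 0.0975 (Acta2) per kb of span, below the median of 21.7. The split into 6 and 4 held on both scales.

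Because only reads with a single place in the genome were kept, a gene with copies elsewhere loses reads. Of all stretches of 50 bases in Actg1, 42.7% occur once in the nuclear genome, beside 93.6% in Actb, 94.4% in Vcl and all of them in Srf, Ccn1 and Ccn2. For the muscle genes the share was 94.7% in Myl9, 97.2% in Tagln, 98.1% in Acta2 and 99.4% in Cnn1. Taken per kb of span that holds such a unique stretch, Actg1 rose from 1775 to 4230 mean normalized counts and Actb from 4965 to 5376. The ratio of Actb to Actg1 was 3.54 per kb of summed exons, 2.80 per kb of span and 1.27 per kb of unique span. Reads were aligned as pairs, which are not stretches of 50 bases. The unique span thus only approximates where a pair could be kept, and 4230 and 1.27 may correct too much. No other target gene moved by more than Actb did from span to unique span, so the level of Actg1 is the least certain of the 10 on this count.

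**Figure D3:**
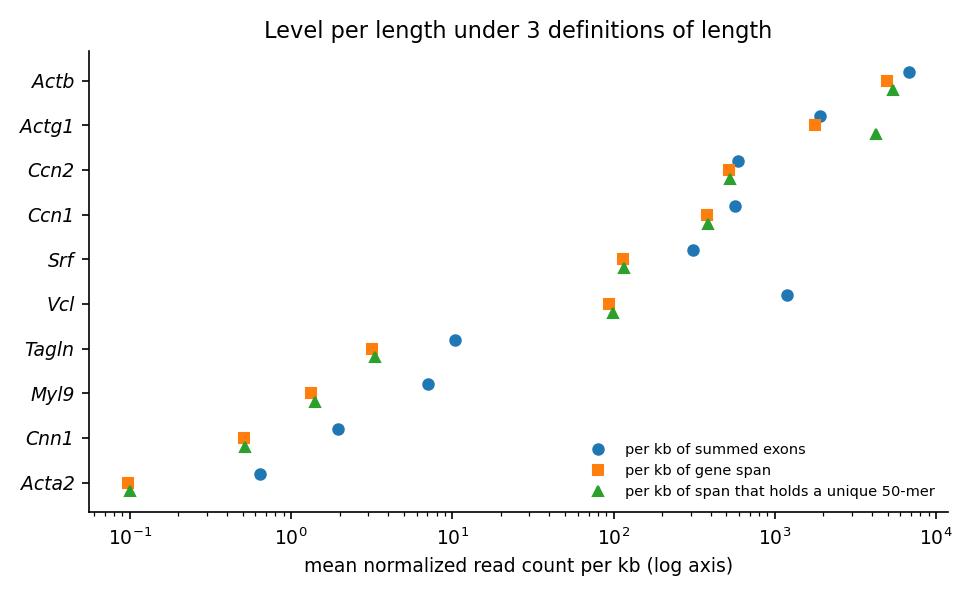
Mean normalized read count per kb (log axis) of each target gene for summed exons (circles), gene span (squares) and span with a unique stretch of 50 bases (triangles). Vcl moves from 1195 to 93.9 between exons and span, and Actg1 moves from 1775 to 4230 when only unique span is counted.

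PROMPT rows were found for Actb, Srf, Vcl, Myl9, Cnn1 and Acta2, and none under the symbols Actg1, Tagln, Ccn1 and Ccn2. PROMPT windows lie within 1 kb upstream of a start, on the opposite strand, and those close to another protein-coding transcript were left out by the authors. The PROMPT of Actb had a level of 15.2 mean normalized counts, higher than 88.0% of the 23257 PROMPTs with reads. Those of Srf (7.45), Vcl (6.34) and Myl9 (4.94) were higher than 80.7%, 78.9% and 75.7% of PROMPTs with reads, whose median was 0.815. The lincRNA Gm26904, which covers Srf, lies on the strand of the Srf PROMPT, and whether its reads add to that level was not tested. Upstream of Cnn1 and Acta2 the levels were 0.396 and 0.239, below that median. The first of these rests on 4 to 14 reads and the second on 2 to 8, so their order cannot be read.

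Relative to its gene, antisense RNA was most plentiful at Myl9. Its PROMPT level was 60.0% of the gene level, a higher share than at 93.1% of the 13699 genes with reads in both tables. Counts of genes and of PROMPTs were scaled apart, with 1 read worth 0.0216 to 0.115 and 0.0266 to 0.129. Shares formed across them are therefore approximate. At Acta2 and Cnn1 the shares were 16.9% and 7.42%, from the few reads given above. At the well transcribed genes the PROMPT was a small part, 0.829% at Srf, 0.0840% at Actb and 0.0647% at Vcl, where the median over genes was 0.340%. Per kb, with the PROMPT window taken as 1 kb and the gene by its span, the share was 374% at Myl9, 6.51% at Srf, 6.75% at Vcl and 0.306% at Actb, beside a median of 8.11%. The same ratio was 77.3% at Cnn1 and 245% at Acta2, from their few PROMPT reads. With the gene taken by summed exons instead, it was 69.7% at Myl9. Span is the length that goes with counts over whole genes, and by span the PROMPT of Myl9 was denser than its gene. These values rest on 39 to 185 reads for the PROMPT and 72 to 381 for the gene, and their difference was not tested.

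Each target family has members outside the list, and these show which paralogue carried the transcription. Actb and Actg1 were the 2 actins above the median per kb of span. Acta1 and Actc1, the skeletal and cardiac actins, and Actg2, the enteric one, had 4.07, 0.137 and 0.199 mean normalized counts per kb of span, beside 0.0975 for Acta2. Per kb of summed exons Actc1 had 0.532 and Acta2 0.643, so the lowest place in the family depends on the length used. Together Actb, Actg1 and Acta2 made up 99.9% of the summed level per kb of the 6 actins, nearly all of it from Actb and Actg1. The coding sequence of Actb is identical to that of Actg1 at 88.6% of aligned bases and to that of Acta2 at 82.8%.

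Calponin and transgelin transcription came from relatives of the target genes. Cnn3, the calponin of many non-muscle cells, had 743 mean normalized counts per kb of span and Cnn2 had 37.5, beside 0.513 for Cnn1. Per kb of span Cnn3 was 1450 times Cnn1. Tagln2 had 300.0 and Tagln3 had 45.6 per kb of span, beside 3.19 for Tagln, and Tagln2 was 94.0 times Tagln. In coding sequence Cnn1 is identical to Cnn3 at 63.4% and Tagln to Tagln2 at 69.3% of aligned bases, and 95.6% or more of the 50-base stretches of these genes are unique.

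The regulatory light chains could not be ranked. Myl12b had 6.94 and Myl12a 1.88 mean normalized counts per kb of span, beside 1.32 for Myl9, and all 3 were below the median. The readthrough gene Gm49909 covers 94.4% of the span of Myl12b and 92.7% of that of Myl12a on the same strand, with a level of 684 of its own. How many reads Myl12a and Myl12b lost to this overlap is not known, and none of the other paralogues overlaps a gene of the table on its own strand.

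In the vinculin family, Ctnna1, which encodes the α-catenin of cadherin junctions, had 259 mean normalized counts per kb of span, 2.76 times Vcl. The value was 68.4 for Ctnnal1 (α-catulin), while Ctnna2 and Ctnna3, the α-catenins of neurons and of heart, had 0.0401 and 0.0771. Of the 6 CCN genes, Ccn1 and Ccn2 held 99.8% of the summed level per kb of span. Ccn3, Ccn4, Ccn5 and Ccn6 each had 0.657 or less per kb of span.

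**Figure D4:**
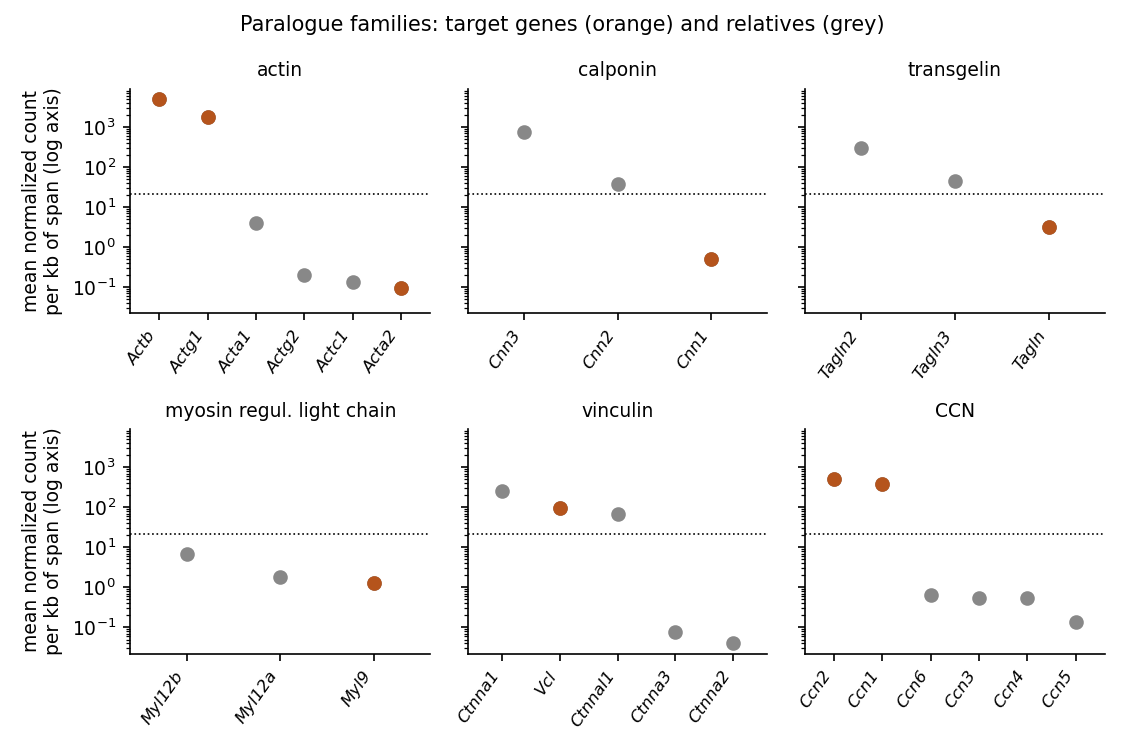
Mean normalized read count per kb of gene span (log axis) in 6 paralogue families, with target genes in orange, their relatives in grey and the median of all genes with reads as a dotted line. Actb and Actg1 lead the actins and Ccn2 and Ccn1 the CCN genes, while Cnn1 and Tagln have the lowest value of their families. Myl12a and Myl12b share a locus with another gene, and per kb of summed exons Actc1 (0.532) is below Acta2 (0.643).

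The regulators of both factors were transcribed. Of 14 SRF regulators, 13 were at or above the median of all genes per kb of span, and the list's median was 130 mean normalized counts per kb beside 21.7 for all genes. Mrtfa (MRTF-A) and Mrtfb (MRTF-B) had 77.2 and 54.0 per kb of span. Myocd, the myocardin of muscle, had 0.187 and was the 1 SRF regulator below the median. Diaph1, a formin that polymerizes actin, and Rock2, a kinase that promotes actomyosin contraction, had 161 and 158. Elk1, an SRF partner of the ternary complex type, had 49.5.

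Of 19 YAP regulators, 17 were at or above the median per kb of span, and their median was 121. Yap1 had 262 mean normalized counts per kb of span and Wwtr1, which encodes TAZ, had 152. All 4 TEAD genes were above the median, with 326 for Tead1, 160.0 for Tead4, 88.5 for Tead2 and 44.1 for Tead3. The exceptions were Amot, a scaffold that binds YAP, with 3.36, and Lats2, a kinase that phosphorylates YAP, with 0.0221 per kb of span. Lats2 had a level of 1.52 mean normalized counts and is also a known YAP target. Overlap with other genes on the same strand was checked for the target genes and their paralogues only. Whether Lats2 or other genes of the regulator, target and marker lists lost reads to such overlap was not tested.

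Among other SRF targets, cytoskeletal genes of most cells stood high and muscle genes low. Of 14 other cytoskeletal SRF targets, 12 were at or above the median per kb of span and 10 per kb of summed exons. Actn1 (α-actinin) and Myh9 (non-muscle myosin heavy chain) had 272 and 283 mean normalized counts per kb of span, while the LIM genes Fhl2 and Tgfb1i1 had 1.86 and 7.51. Of 10 muscle SRF targets 2 were at or above the median, Smtn (smoothelin) with 87.2 and Csrp1 with 104, and the lowest levels were those of Actc1 and Actg2. Among 7 immediate early SRF targets 4 were at or above the median per kb of span and 3 per kb of summed exons. Ier2 had 1538 and Fos 128 per kb of span, while Egr2 and Egr3 had 0.497 and 0.400.

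Of 20 other YAP targets, 10 were at or above the median per kb of span, 11 per kb of summed exons and 13 by level. Asap1 and Myof had 72.1 and 130.0 mean normalized counts per kb of span, while Ankrd1, often used as a readout of YAP, had 0.373. The median of this list was 20.9 per kb of span beside 21.7 for all genes with reads, and Ccn1 and Ccn2 had 379 and 521. Per kb of summed exons its median was 186 beside 120 for all genes, and Ccn1 and Ccn2 had 564 and 590. A list's counts and median are a description of these 18 libraries, and no test was made of them.

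**Figure D5:**
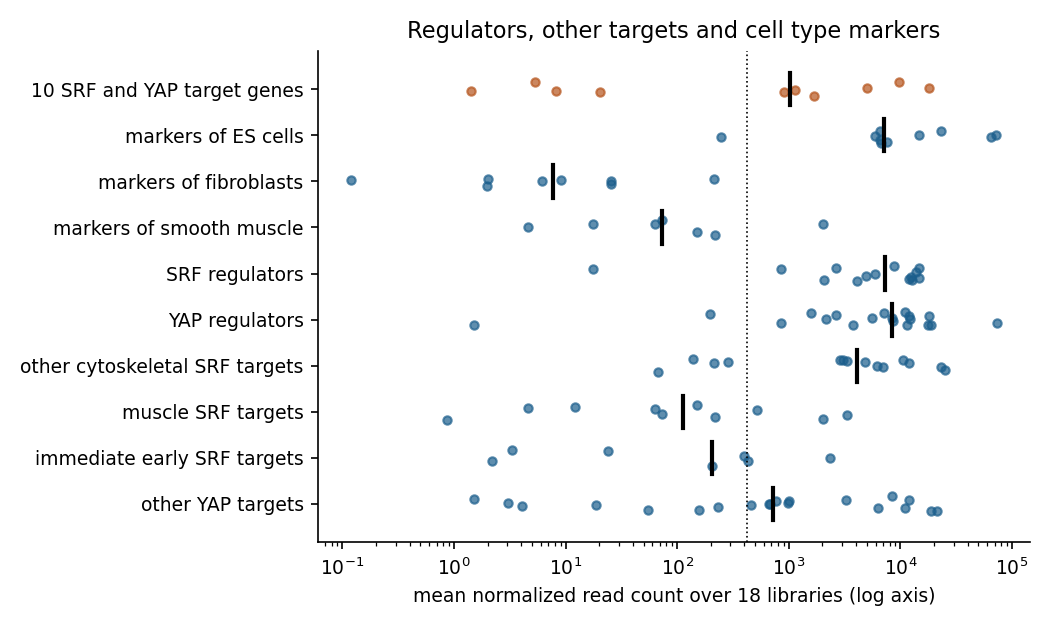
Mean normalized read count over 18 libraries (log axis), not corrected for length, of each gene (points) in the target genes and in lists of regulators, other targets and cell type markers, with the median of each list as a black bar and that of all genes with reads as a dotted line. The regulators and ES cell markers lie mostly above the dotted line and the fibroblast and smooth muscle markers mostly below it.

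Markers of ES cells, the labelled cell type, were high, and markers of fibroblasts and smooth muscle, in which the muscle genes are best known, were low. All 10 ES cell markers were above the median per kb of span, with Sox2 at 2910 and Esrrb at 401 mean normalized counts per kb and a lowest value of 187 for Utf1. Tfcp2l1, with the highest level of the list, had 1261. All 8 fibroblast markers were below the median, from Thy1 at 4.94 and Pdgfra at 4.62 to Dcn at 0.0510 and Postn at 0.00396. Of 7 smooth muscle markers 6 were below the median, with Synpo2 at 1.38 and Actg2 at 0.199, and Smtn was the exception. These 7 genes are no separate evidence, since 6 of them are also among the muscle SRF targets above and Myocd is among the SRF regulators. Fewer cells of a type and less RNA per cell cannot be told apart in such bulk libraries, and whether the reads of the muscle genes came from a few differentiated cells was not tested.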

How the data were processed

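TT-seq was analysed for 18 libraries of E14 ES cells. Per the study's methods, the authors used Trim Galore for trimming, STAR for alignment to mm10 (unique alignments only) and featureCounts for counts of read pairs by strand on Gencode vM25, with no filter on expression. GEO's processing notes also name HTSeq. The deposited signal is the baseMean, a normalized count per feature that the authors scaled by DESeq2 size factors and averaged across libraries. The 4 other columns of each table hold the authors' own comparison (shrunken log2 fold change, its standard error, p and adjusted p) and were not used, so depleted and control libraries were not compared and no test was made. Regions of the eRNA and ncRNA tables could not be tied to a target gene and were not used. Counts per library were not analysed here.

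The 10 genes and the gene lists were chosen with earlier results of these data known. Genes were matched by symbol. Percentiles are the share of genes (or PROMPTs) with a level above 0 that lie lower. Positions, exons and spans came from Gencode vM21 on GRCm38, the build of mm10, for 21817 of the 21859 genes. Per-length levels used summed exons, with gene span, the longest transcript and, chosen after seeing the data, span with unique 50-base stretches as alternatives. PROMPT shares per kb of span were also added after seeing the data. Steps of 1 read were recurring means below 0.2 that are no sum of smaller ones. A recurring mean was held by 0.06 or more of the number that held the commonest one, and sums matched within 2e-06. Reads behind a mean were bounded by dividing it by the highest and lowest step. Coding sequences, the longest per gene, were aligned globally in place of proteins, for which no table was at hand. Promoters came from RefSeq, and Actb, Tagln and Ccn2 had no entry.

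Named besides the 10 genes were the MRTF, myocardin, YAP, TAZ and TEAD genes, all paralogues, and the 2 highest and 2 lowest genes of each other list by level. Ranks, motif searches and steps were tested on simulated data. Scripts ran in Python 3.11.15, with scipy 1.17.1, numpy 2.4.6, Biopython 1.88, numba 0.67.0, matplotlib 3.10.9 and pandas 2.3.3.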

Additional observations from a re-analysis of the deposited data

How the results depend on the processing

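No paired analysis was possible because each gene and PROMPT has 1 mean over all libraries, and for the same reason no replicate could be left out. The split of the target genes into 6 at or above and 4 below the median was the same against all genes of the table, against genes with a level of at least 1, and per kb of exons, span or longest transcript. Member PROMPTs at or above the median numbered 4, and 3 against PROMPTs with a level of at least 1. No symbol had more than 1 PROMPT row, so taking the highest row gave the same 4. A CArG box was in 4 promoter windows, and in 5 with 1 mismatch. Of 108 values under an alternative, 45 stayed within their binomial interval or within 1.5 times of the value given and 63 moved. That interval is for the share of genes or PROMPTs that rank lower, and it does not measure the uncertainty of a gene's own level. Among the moved values, the level of Vcl per kb was 1195 by exons, 93.9 by span and 1859 by longest transcript, and that of Acta2 was 0.643, 0.0975 and 0.694. The number of reads limits precision most for Acta2 (13 to 65 reads) and least, among the 4 muscle genes, for Tagln (179 to 951). Their spread over libraries is not known.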
